A study of Mus musculus with 8 samples.

Results

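Granzymes and perforin, the stored proteins with which killer T cells destroy their targets, were followed across the 8 RNA libraries of a study of mouse CD8+ T cells. The genes were taken by symbol from the deposited counts: Gzma, Gzmb, Gzmc, Gzmd, Gzme, Gzmf, Gzmk, Gzmm and Prf1. All 9 were among its 24976 gene symbols, and 4 of them (Gzma, Gzmb, Gzmc and Prf1) had enough counts to be tested. The study started from naive CD8+ T cells and stimulated them in culture with antibodies to CD3 (2 µg/ml) and CD28 (1 µg/ml) and with IL-2 (10 ng/ml), in every group alike. Wild-type littermates (WT) were compared with mice carrying floxed Nr4a1 and Nr4a2 alleles, both homozygous, and a Cre recombinase named Cd8Cre (labelled dKO), after the Cd8 coreceptor genes, so that deletion is aimed at CD8-expressing cells. Cells were harvested at 24 or 48 h, and each of the 4 groups has 2 libraries. The sources used here do not give the ages of the mice, how many mice gave cells or whether cells were pooled.

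Granzymes are serine proteases kept in cytotoxic granules with perforin, the product of Prf1. When a killer cell meets its target the granules fuse with the cell membrane, perforin forms pores, and the granzymes enter the target and cleave proteins there. Naive CD8+ T cells hold little of either, and the granule contents are made in the days after T cell receptor and cytokine signals.

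Total counts ran from 5000952 to 21686236 per library. The coreceptor gene Cd8a stood at 510 to 853 CPM (counts per 1000000 counts, scaled by the TMM method) and Cd4 had 0 to 2 counts. Of 8 CD8+ T cell markers, 5 were among the gene symbols. Their sum was 1864 to 1961 CPM in WT and 1538 to 1613 CPM in dKO at 24 h. At 48 h it was 1230 to 1591 against 1660 to 1713 CPM. At each time 0 of the 5 were called between labels, beside 0.432% of all tested genes at 24 h and 11.2% at 48 h. Without regard to calls, all 5 were lower under the dKO label at 24 h and all 5 higher at 48 h. From 24 to 48 h in WT 1 of the 5 was called lower, beside 3.5% of all tested genes. The part of this marker sum in the results below was not tested. The counts did not show the deletion: the targeted gene Nr4a2 was higher at 24 h in the dKO-labelled pair (log2 fold change 1.35, SE 0.173, edgeR adjusted p = 0.00836), and Nr4a1 was not called (0.37, SE 0.265, adjusted p = 0.88). At 48 h Nr4a2 was again higher (1.38, adjusted p = 0.00982) and Nr4a1 was at -0.35 (adjusted p = 0.38; -0.43 to -0.27 with 1 library left out). The Nr4a2 call held in 2 of 8 such fits at 24 h and in 6 at 48 h, with the same sign in all. Which exons Cre removes is not given in the sources used here, so directions are stated for the libraries labelled dKO. Sex moved with the genotype label. Over total counts, Xist ran from 323 to 805 CPM under the WT label against 0.719 to 1.80 CPM under the dKO label, while the summed Y-linked genes ran from 1.28 to 1.75 against 131 to 175 CPM. Genotype label and sex therefore cannot be told apart in any value below. The WT libraries at 48 h had the largest chi-square between replicates, at 67.9 per degree of freedom over genes against 2.63 to 18.1 in the other groups. This measure uses raw counts and grows with depth, and WT 48 h replicate 2 was the deepest library (21686236 counts).

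The family falls into separate places in the genome (GRCm38, the build of mm10, GENCODE M21). Gzmb lies on chromosome 14 at 56258838 to 56262260, at one end of a row of granzyme genes that are all read from the minus strand. Its neighbour is Gzmc at 56231441 to 56234656. Gzmf follows at 56205263 to 56211417, and Gzmd at 56129556 to 56132608 and Gzme at 56117626 to 56120625 lie at the far end. Gzma (113093825 to 113100981) and Gzmk (113171608 to 113225908) sit side by side on chromosome 13. Gzmm (79689020 to 79695261) and Prf1 (61297833 to 61304680) are both on chromosome 10 but far apart.

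The first 60 coding bases of 4 members of the chromosome 14 row are shown because they bear on how well counts can be given to single genes. The letters come from the GENCODE M21 transcripts, 5′ to 3′, and capitals mark bases that differ from Gzmd.
Gzmb: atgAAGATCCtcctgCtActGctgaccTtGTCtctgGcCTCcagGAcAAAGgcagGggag
Gzmc: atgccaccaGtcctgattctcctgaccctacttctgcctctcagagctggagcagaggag
Gzmd: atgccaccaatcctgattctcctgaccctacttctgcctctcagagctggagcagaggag
Gzme: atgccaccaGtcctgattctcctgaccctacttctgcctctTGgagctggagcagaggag
In this stretch Gzmb differed from Gzmd at 25 bases, Gzme at 3 and Gzmc at 1. Over the whole coding part Gzmd and Gzme were 93.3% identical, Gzmc and Gzmd 71.1%, and Gzmb and Gzmc 75.6%. Of the 50-base windows of each mRNA, 0% of Gzmb, 4.14% of Gzmc, 21.9% of Gzmd and 20.6% of Gzme occur unchanged in another granzyme mRNA. The read length and the treatment of reads with several matches were not given in the sources used here. With 30-base windows the shares were 1.42% for Gzmb, all of it with Gzmc, 15.3% for Gzmc, with Gzmb among its partners, 39.3% for Gzmd and 42.7% for Gzme. With 75-base windows Gzmb and Gzmc shared none. Counts of Gzmc, Gzmd, Gzme, Gzmf and Gzmg are therefore uncertain, and for Gzmc this stands beside 79 counts in all libraries against 118450 of Gzmb.

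The 250 bases before the RefSeq start (GRCm38.p6, minus strand) are shown for Gzmb and Gzmc, the members called between the genotype labels. Capitals mark matches to the motifs searched.
Gzmb (chr14:56262335-56262584): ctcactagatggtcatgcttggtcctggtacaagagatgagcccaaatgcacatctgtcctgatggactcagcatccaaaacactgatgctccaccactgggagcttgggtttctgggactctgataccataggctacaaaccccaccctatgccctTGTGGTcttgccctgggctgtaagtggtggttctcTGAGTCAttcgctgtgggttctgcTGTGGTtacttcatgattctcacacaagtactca
Gzmc (chr14:56234658-56234907): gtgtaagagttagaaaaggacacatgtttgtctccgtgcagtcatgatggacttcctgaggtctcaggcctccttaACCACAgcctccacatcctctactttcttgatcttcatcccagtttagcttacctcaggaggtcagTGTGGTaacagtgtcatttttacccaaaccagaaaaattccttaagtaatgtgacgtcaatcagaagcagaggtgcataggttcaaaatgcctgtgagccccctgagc
Motifs were searched on both strands: AAAGGTCA, the NBRE that a single NR4A protein binds, TGANTCA for AP-1, TTCNNNGAA for STAT factors, AGGTGTGA for T-box factors and TGTGGT for RUNX factors. Gzmb held 1 AP-1 match and 2 RUNX matches, and Gzmc held 2 RUNX matches. Among 32851 RefSeq promoter windows of this length 6.75% held the AP-1 letters and 14.1% the RUNX letters. The NBRE letters were in neither window. They occurred once each in the windows of Gzmd and Gzme, which had no counts, and in 1.34% of all windows. The Prf1 window held 1 RUNX match.

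Gzmb, which encodes granzyme B, the protease that cuts after aspartate and starts apoptosis in the target, was the member with the most counts. It rose steeply between the time points under both genotype labels. In WT it stood at 363 and 388 CPM at 24 h and at 2232 and 2298 CPM at 48 h. Under the dKO label it stood at 650.1 and 694 CPM at 24 h, then at 3169.9 and 3321 CPM at 48 h. All 48 h libraries lay above all 24 h libraries, and at each time both libraries labelled dKO lay above both WT libraries. Of all tested genes, 44.9% had genotype groups that did not overlap at 24 h and 56.9% at 48 h.

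The rise of Gzmb from 24 to 48 h was 6.04-fold in WT (log2 2.59, SE 0.19, adjusted p = 0.000523, edgeR) and 4.83-fold in the libraries labelled dKO (log2 2.27, SE 0.187, adjusted p = 0.000948). Gzmb was the only one of the 4 tested members to pass in either time comparison. Of all 12742 genes tested, 11.4% passed in WT (7.87% higher and 3.5% lower at 48 h) and 3.63% in dKO (1.76% higher and 1.88% lower). The groups of the 2 times did not overlap in 47.1% of tested genes in WT and in 66.3% in dKO. The call held in all 8 fits that left out 1 library, with adjusted p of at most 0.0047 in WT and 0.0383 in dKO.

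Between genotype labels the group means of Gzmb were 672 ± 31.0 CPM in dKO and 375 ± 17.7 CPM in WT at 24 h, and 3245 ± 107 and 2265 ± 46.1 CPM at 48 h (SD, n = 2 each). The difference did not pass at 24 h (1.79-fold, log2 0.84, 95% interval 0.44 to 1.24, edgeR adjusted p = 0.118) or at 48 h (1.43-fold, log2 0.52, 0.12 to 0.92, adjusted p = 0.0845). Over both times together it passed, at 1.60-fold (log2 0.68, SE 0.127, adjusted p = 0.021). The change in the genotype difference between the times was -0.32 on the log2 scale (95% interval -0.89 to 0.24, adjusted p = 0.579), so the data did not separate the size at 24 h from that at 48 h.

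These genotype calls of Gzmb moved with the libraries and the tool. The call over both times was lost without dKO 24 h replicate 1 or 2 (edgeR adjusted p = 0.141 and 0.127) or dKO 48 h replicate 1 or 2 (0.11 and 0.141). The 24 h difference passed in DESeq2 (0.000655), with no filter on low counts (0.0274) and without WT 48 h replicate 1 or 2 (0.00367 and 0.00392). The 48 h difference passed in DESeq2 (0.0348), with total library size alone (0.0248), without WT 24 h replicate 1 or 2 (0.0292 and 0.0312) and without WT 48 h replicate 1 (0.0257). Across the 8 fits with 1 library left out the log2 difference stayed at 0.79 to 0.88 at 24 h, 0.48 to 0.56 at 48 h and 0.65 to 0.71 over both times.

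**Figure D1:**
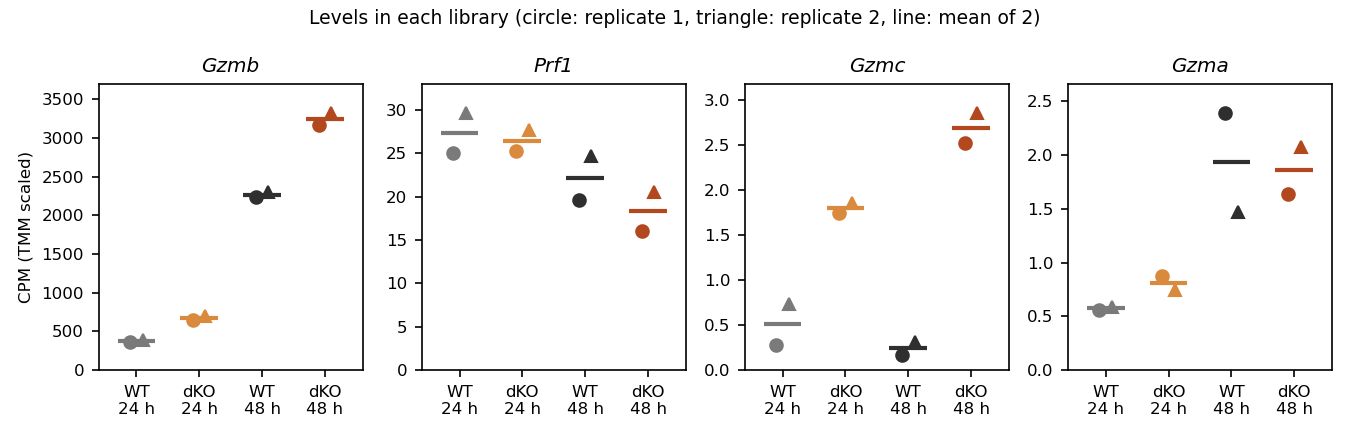
Level of the 4 tested members in each library (vertical axis, TMM-scaled CPM from 0, with its own range in each panel) by group (horizontal axis), with replicate 1 as a circle, replicate 2 as a triangle and the mean of 2 as a line. Gzmb climbs from 363 to 694 CPM at 24 h to 2232 to 3321 CPM at 48 h, Prf1 stays between 16.1 and 29.7 CPM, and Gzmc is below 0.8 CPM in all WT libraries and above 1.7 CPM in all libraries labelled dKO.

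Prf1 encodes the pore-forming perforin, and none of its comparisons passed the test. It stood at 25.0 and 29.7 CPM in WT and at 25.3 and 27.7 CPM in dKO at 24 h. At 48 h it stood at 19.6 and 24.8 CPM in WT and at 16.1 and 20.5 CPM in dKO. The genotype groups overlapped at both times, and under each label both 48 h libraries lay below both 24 h libraries. Of all tested genes, 47.1% had time groups that did not overlap in WT and 66.3% in dKO, in either direction.

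In edgeR the log2 difference between labels was -0.05 at 24 h (95% interval -0.48 to 0.38, adjusted p = 0.978) and -0.29 at 48 h (-0.73 to 0.14, adjusted p = 0.319). From 24 to 48 h it was -0.28 in WT (-0.71 to 0.14, adjusted p = 0.405) and -0.53 in dKO (-0.97 to -0.09, adjusted p = 0.155). The difference in dKO over time passed without WT 48 h replicate 1 or 2 (adjusted p = 0.0286 and 0.029), the genotype difference at 48 h without WT 48 h replicate 1 (-0.44, adjusted p = 0.039), and the difference in WT over time with total library size alone (-0.65, adjusted p = 0.0478). Scaling by total library size moved the median of all genes by -0.36 in that comparison. At 24 h the sign turned without WT 24 h replicate 2 (0.064) or dKO 24 h replicate 1 (0.016).

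The ratio of Gzmb to Prf1 counts within a library needs no scaling between libraries. It was 14.5 and 13.1 in WT and 25.7 and 25.1 in dKO at 24 h. By 48 h it was 114 and 92.8 in WT and 197 and 162 in dKO. The 4 groups did not overlap, and the ratio was higher at 48 h and, at each time, higher in the libraries labelled dKO. How often ratios of other gene pairs separate in this way was not computed. Per kilobase of mRNA, Gzmb stood at 261 CPM and Prf1 at 11.1 CPM in WT at 24 h, and at 2260.1 and 7.40 CPM in dKO at 48 h. Whether counts cover the whole mRNA or only its 5′ end is unknown from these sources, and on both scales Gzmb was the higher of the pair in every group mean.

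Gzmc encodes granzyme C, a chymase-like granzyme that T cells make under prolonged or strong stimulation. It was a low gene in every library. WT libraries had 2 and 5 counts at 24 h and 1 and 6 at 48 h, and libraries labelled dKO had 16 and 10 at 24 h and 17 and 22 at 48 h. As CPM this was 0.281 and 0.734 against 1.75 and 1.86 at 24 h, and 0.171 and 0.316 against 2.53 and 2.86 at 48 h. At each time both libraries labelled dKO lay above both WT libraries, as they did in 11.7% of all tested genes. Across the times, too, every library labelled dKO lay above every WT library. How many other genes meet that stricter rule was not computed.

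Gzmc was the member that rose in the libraries labelled dKO at 48 h, by 9.28-fold (log2 3.21, SE 0.499, edgeR adjusted p = 0.0141). It was the only call among the 4 members at that time, where 11.2% of the tested genes were called, 3.19% higher and 8.04% lower. Over both times it was 5.70-fold higher (log2 2.51, SE 0.366, edgeR adjusted p = 0.00819). With Gzmb this made 2 calls among the 4 members, against 7.8% of tested genes (2.28% higher and 5.52% lower). Gzmc passed the filter on low counts only through the libraries labelled dKO, which favoured its calls. These tallies describe the members and are no support for a direction. At 24 h Gzmc did not pass (log2 1.80, 95% interval 0.61 to 3.0, edgeR adjusted p = 0.311). By adjusted p in edgeR 0 of 4 members passed at 24 h, against 0.432% of tested genes (0.361% higher and 0.0706% lower). By an unadjusted p under 0.05 there were 2 members at 24 h, among 889 of the 12742 genes, and DESeq2 called 1 of the 4, Gzmb, among 78 genes.

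Counting error alone sets wide limits for Gzmc. Per total count, 39 counts in dKO against 7 in WT at 48 h give a ratio of 10.8 (95% exact interval 4.76 to 28.5), and 26 against 7 at 24 h give 3.56 (1.50 to 9.71). The gene reached the minimum for testing through the libraries labelled dKO. Summed with its neighbours Gzmd, Gzme, Gzmf, Gzmg and Gzmn, the log2 difference was 1.21 at 48 h (adjusted p = 0.0416) against 3.21 for Gzmc alone and 1.19 over both times (adjusted p = 0.0261) against 2.51. Gzmc alone, with 1 library left out, ranged from 3.03 to 3.86 at 48 h and from 2.25 to 2.92 over both times. The 24 h value moved to 1.28 lacking WT 24 h replicate 1 and to 2.60 lacking replicate 2, and it was not called in any of these fits. The 48 h call was lost without dKO 48 h replicate 1 or 2 (edgeR adjusted p = 0.137 and 0.191), and the call over both times without dKO 24 h replicate 1 (0.0681) or dKO 48 h replicate 1 or 2 (0.0536 and 0.0708).

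Neither time comparison of Gzmc passed the test. In WT the groups of the 2 times overlapped. Under the dKO label both 48 h libraries lay above both 24 h libraries. In dKO 66.3% of tested genes had groups of the 2 times that did not overlap, in either direction. The log2 difference of 48 h from 24 h was -0.83 in WT (95% interval -2.35 to 0.70, edgeR adjusted p = 0.536) and 0.58 in dKO (-0.31 to 1.48, adjusted p = 0.402). The genotype difference at 48 h exceeded that at 24 h by 1.41 (-0.37 to 3.19, adjusted p = 0.469). When the counts of Gzmc, Gzmd, Gzme, Gzmf, Gzmg and Gzmn were summed to 1 feature, the difference over time in WT turned to 0.40 (adjusted p = 0.628) and the change in the genotype difference between the times became 0.031 (adjusted p = 0.988).

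**Figure D2:**
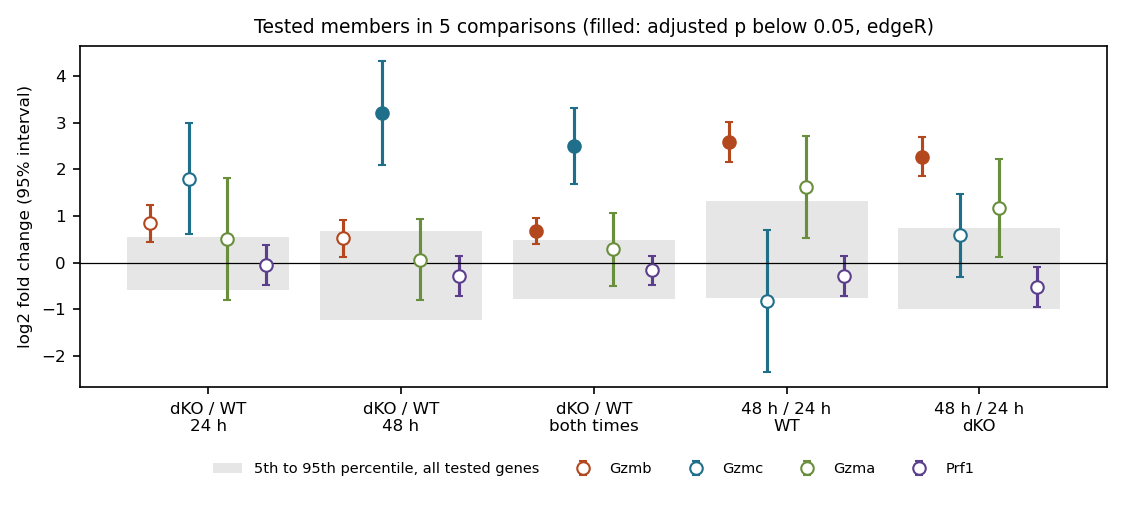
Log2 fold change of each tested member (points) with its 95% interval (bars) in 5 comparisons, filled where the edgeR adjusted p is below 0.05, over the 5th to 95th percentile of all 12742 tested genes (grey). Gzmb is filled in both time comparisons (2.59 and 2.27) and over both times between labels (0.68), Gzmc at 48 h (3.21) and over both times (2.51), and Gzma and Prf1 in none.

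Gzma encodes granzyme A, a trypsin-like protease of effector T cells and NK cells. It had 4 and 4 counts in WT and 8 and 4 in dKO at 24 h, and 14 and 28 in WT and 11 and 16 in dKO at 48 h. As CPM the 24 h libraries stood at 0.562 and 0.587 in WT and 0.875 and 0.744 in dKO, and the 48 h libraries at 2.39 and 1.48 in WT and 1.64 and 2.08 in dKO. All 48 h libraries lay above all 24 h libraries. Gzma reached the minimum for testing only through 48 h libraries, so the filter favoured its higher place at that time. The same holds for its time comparisons below. At 24 h both libraries labelled dKO lay above both WT libraries, and at 48 h the genotype groups overlapped. Of all tested genes, 47.1% had time groups that did not overlap in WT and 66.3% in dKO. Genotype groups at 24 h did not overlap in 44.9%.

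The log2 difference of Gzma from 24 to 48 h was 1.62 in WT (95% interval 0.52 to 2.71, edgeR adjusted p = 0.0632) and 1.17 in dKO (0.12 to 2.22, adjusted p = 0.178), so neither passed. Without WT 48 h replicate 2 the WT value passed (2.02, adjusted p = 0.03). Between labels the difference was 0.51 at 24 h (-0.80 to 1.81, adjusted p = 0.917) and 0.06 at 48 h (-0.81 to 0.93, adjusted p = 0.931). The 48 h value turned to -0.34 without WT 48 h replicate 2, to -0.15 without dKO 48 h replicate 2 and to -0.00701 in DESeq2.

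The other members were at or near the limit of counting. Gzmf, a granzyme of the chromosome 14 row, had 41 counts in all 8 libraries together, from 1 to 12 per library. Gzmm, which encodes granzyme M, a protease best known from NK cells and other innate-like lymphocytes, had 20 counts in 6 libraries. In WT it had 0 and 0 counts at 24 h and 1 and 6 at 48 h, and in dKO 1 and 3 at 24 h and 2 and 7 at 48 h. Gzmk, which encodes a trypsin-like granzyme that marks some memory CD8+ cells, had 2 counts, both in dKO 48 h replicate 1.

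Gzmd and Gzme were listed at 0 in every library. Over the 69575529 counts of the study, 0 counts allow up to 3, or 0.0431 CPM, with no allowance for reads lost to near-identical copies. Of the further granzymes of the same row, Gzmg had 21 counts in 7 libraries and Gzmn 1 count. Gzmd, Gzme, Gzmf, Gzmk and Gzmm were not tested, and ratios from their counts are not precise: for Gzmf the dKO to WT ratio per total count was 1.28 at 24 h (95% exact interval 0.389 to 4.47) and 1.14 at 48 h (0.465 to 2.63).

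Gzmb made up nearly all granzyme counts. The granzymes other than Gzmb took 0.415 to 0.559% of the granzyme counts of a library at 24 h and 0.140 to 0.207% at 48 h. The share of Gzmc was 0.0771% and 0.189% in WT at 24 h against 0.268% and 0.266% in dKO. At 48 h it was 0.00764% (95% Wilson interval 0.00135 to 0.0433%) and 0.0137% (0.00629 to 0.0300%) in WT. In dKO at 48 h it was 0.0797% (0.0498 to 0.128%) and 0.0859% (0.0567 to 0.130%). At 48 h the intervals of the WT libraries ended below those of the libraries labelled dKO, and at 24 h the intervals of both WT libraries (0.0211 to 0.281% and 0.0806 to 0.441%) overlapped those of both dKO libraries (0.165 to 0.434% and 0.145 to 0.490%).

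**Figure D3:**
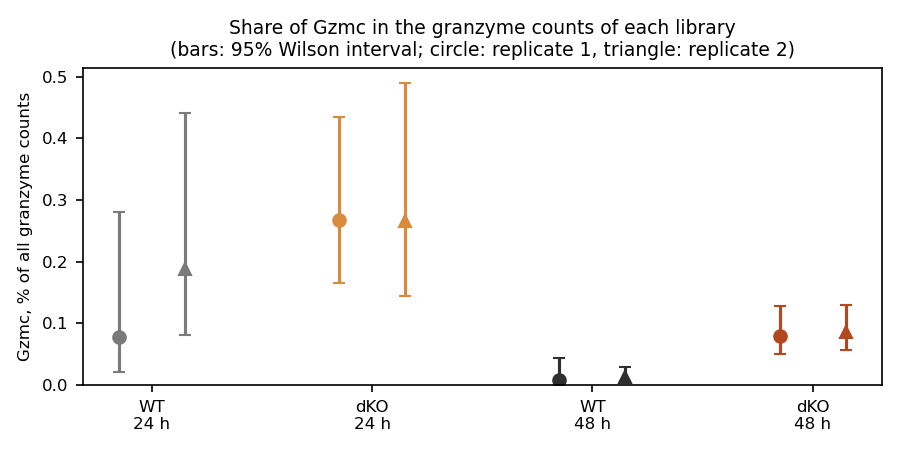
Share of Gzmc in the summed counts of 10 granzyme genes (vertical axis, percent) in each library, by group (horizontal axis), with 95% Wilson intervals that cover counting error only. At 48 h the WT libraries lie at 0.00764% and 0.0137% and the libraries labelled dKO at 0.0797% and 0.0859%.

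**Figure D4:**
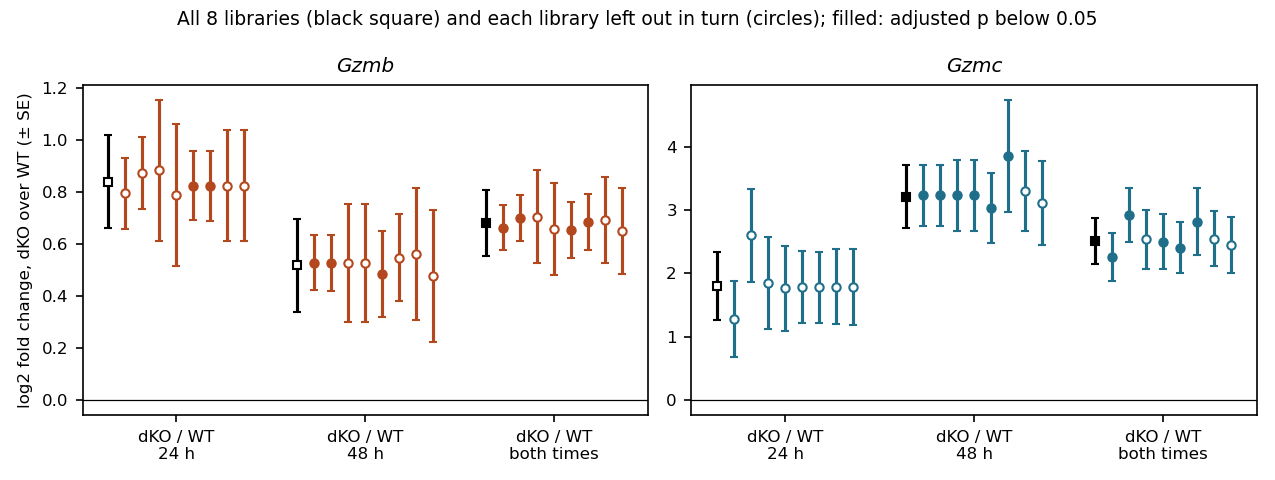
Log2 fold change of Gzmb (left) and Gzmc (right) between the libraries labelled dKO and WT (vertical axis, with SE bars) at 24 h, 48 h and over both times, with all 8 libraries (black square) and with each library left out in turn (circles), filled where the edgeR adjusted p is below 0.05. Every point lies above 0, while the filling changes with the library left out, for instance at 48 h, where Gzmc is open without either dKO 48 h replicate.

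Both genotype directions can be set beside the background. Of the 4 tested members, 2 (Gzmb and Gzmc) had both libraries labelled dKO above both WT libraries at 24 h and at 48 h, and 0 had both below. Among all tested genes 11.7% lay above at both times and 9.28% below. Gzmc passed the filter on low counts only through the libraries labelled dKO, so its place above was favoured by the filter, and the tally is a description of the members and no support for a direction.

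Other cells that make granzymes were checked by their markers. Of 12 NK and gamma delta T cell markers, 10 were in the table, and Ncr1 and Klra8 had no count in any library. The summed level of the list was 2.06 to 2.11 CPM in WT and 2.63 to 2.79 CPM in dKO at 24 h, and 2.95 to 3.76 and 2.83 to 3.51 CPM at 48 h. At 24 h both libraries labelled dKO lay above both WT libraries in this sum, as they did for Gzma, Gzmb and Gzmc. The part of this sum in those results was not tested. At 48 h the groups overlapped. Of 10 mast cell and basophil markers 4 were in the table, and Cma1 had no count. Their sum was 0.703 to 1.62 CPM in WT and 0.875 to 1.12 CPM in dKO at 24 h. At 48 h both WT libraries (1.20 and 1.63 CPM) lay above both libraries labelled dKO (0.149 and 0.650 CPM), and its part in the 48 h differences was not tested. Of 10 myeloid markers 9 were in the table, 5 of them at 0 in every library (Lyz2, S100a8, S100a9, Elane and Ctsg). Their sum was 15.1 and 15.2 CPM in WT at 48 h and 4.55 to 5.95 CPM in the other 6 libraries, and its part in the 48 h differences was not tested. All 5 CD4+ and regulatory T cell markers were in the table. Their sum was 22.1 and 26.3 CPM in WT and 18.7 and 20.3 CPM in dKO at 24 h, and 62.0 and 95.7 against 88.3 and 91.7 CPM at 48 h, so it was higher at 48 h under both labels, as Gzmb was. Most of it came from Ctla4, an inhibitory receptor gene that activated CD8+ T cells also express, at 15.6 to 21.7 CPM at 24 h and 58.2 to 91.7 CPM at 48 h, while Foxp3, which defines regulatory T cells, stood at 1.34 to 3.51 CPM. Of 5 B cell markers 4 were in the table, with a sum of 6.02 and 6.60 CPM in WT against 3.72 and 4.59 CPM in dKO at 24 h, and overlapping groups at 48 h. The part of these lists in the differences of Gzmb and Gzmc was not tested. In bulk libraries more cells that express a gene and more RNA per cell cannot be told apart.

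The wider granule pathway was followed in a list of 39 genes for packing, processing, transport and inhibition of granule proteins, of which 34 were tested. Under the dKO label 2 of the 34 rose and 0 fell at 24 h, where 0.432% of all tested genes were called. At 48 h 2 rose and 1 fell. Of all tested genes 11.2% were called, 3.19% higher and 8.04% lower, so the count in both directions together did not exceed the background. The median log2 difference was 0.04 at 24 h and 0.22 at 48 h, against 0.01 and -0.03 over all tested genes. The members called at both times were inhibitors. Serpinb9 encodes the serpin that blocks granzyme B inside the cell, and Serpinb6b a related intracellular serpin. Serpinb9 stood at 50.7 and 53.2 CPM in WT and at 138 and 109 CPM in dKO at 24 h, and at 36.2 and 39.9 against 62.5 and 66.6 CPM at 48 h. Serpinb6b stood at 26.1 and 34.5 against 98.6 and 86.2 CPM at 24 h, and at 38.6 and 27.5 against 61.8 and 63.0 CPM at 48 h. In both genes the libraries labelled dKO lay above the WT libraries at each time, as they did in 11.7% of all tested genes.

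Over both times Serpinb9 was 2.01-fold and Serpinb6b 2.41-fold higher in the libraries labelled dKO (edgeR adjusted p = 0.00187 for each), and both kept that call in all 8 fits with 1 library left out. Leaving out WT 24 h replicate 1, WT 24 h replicate 2 or dKO 24 h replicate 1 ended the 24 h calls (adjusted p = 0.101 to 0.19), and leaving out either dKO 48 h replicate ended those at 48 h (0.137 to 0.192). The 48 h call of Serpinb6b also missed the threshold without dKO 24 h replicate 2 (0.0502). The number of calls in the list at 48 h also moved with the library left out and with the scaling. With total library size alone 10 genes of the list rose and 1 fell at 48 h. That scaling called 1615 of the 12742 tested genes higher and 916 lower. Over both times 4 of the 34 genes rose and 0 fell, beside 2.28% of all tested genes called higher and 5.52% lower. The list thus also gained 2 calls over both times: Stx11, a syntaxin needed for granule release, at 1.70-fold (adjusted p = 0.0297) and Chst11, a chondroitin sulfotransferase, at 2.46-fold (adjusted p = 0.0154). Gnptab, which tags lysosomal enzymes for sorting, fell at 48 h (log2 -0.96, adjusted p = 0.0296). Of the 8 fits with 1 library left out these calls held in 2 for Stx11, 4 for Chst11 and 1 for Gnptab. Stx11 was called only without WT 48 h replicate 1 or 2, and Gnptab only without WT 48 h replicate 1.

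Srgn, Ctsc, Nkg7 and Cst7, which were named whatever their values, did not pass between labels over both times. Srgn encodes serglycin, the proteoglycan that holds granzymes in the granule, and differed by 0.07 on the log2 scale over both times (edgeR adjusted p = 0.812). Ctsc encodes the peptidase that activates granzyme precursors, at -0.06 (adjusted p = 0.725). Nkg7, a granule membrane protein gene, was at 0.20 (adjusted p = 0.304), and Cst7, which encodes the inhibitor cystatin F, at 0.31 (adjusted p = 0.142). The sign turned for Ctsc with total library size alone (0.015) and without WT 24 h replicate 2 (0.027), and for Srgn without WT 48 h replicate 2 (-0.10). Srgn, Nkg7 and Cst7 each passed in 1 of the 8 fits with 1 library left out, and calls over all genes also moved widely between those fits. The log2 difference there ran from -0.10 to 0.26 for Srgn, from 0.11 to 0.28 for Nkg7 and from 0.20 to 0.40 for Cst7.

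Across time, 1 of the 34 genes rose and 2 fell in WT, where 11.4% of all tested genes were called, and 1 rose and 1 fell in dKO, where 3.63% were, with medians of 0.07 and -0.12 against 0.00 and -0.01 over all tested genes. Serpinb6a, another intracellular serpin gene, rose under both labels (log2 1.17, adjusted p = 0.013 in WT, and 1.38, adjusted p = 0.0161 in dKO, edgeR). Ctsw, which encodes a cathepsin of cytotoxic cells, fell in WT (-1.07, adjusted p = 0.00258), as did Hps1, a gene for lysosome-related organelles (-0.83, adjusted p = 0.0252). The Serpinb6a call was lost in WT without WT 24 h replicate 1 (0.0537) or 2 (0.167), and in dKO without any one of the 4 dKO libraries (0.107 to 0.177). The Hps1 call was lost without either WT 24 h or either dKO 48 h replicate (0.0574 to 0.158) and in DESeq2 (0.128), and the Ctsw call held in all 8 fits. Serpinb9 fell in dKO (-0.94, adjusted p = 0.0122), while Gzmb rose there. That fall of Serpinb9 did not pass without dKO 24 h replicate 1 (0.192) or dKO 48 h replicate 1 (0.196) or 2 (0.167).

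Regulators of the cytotoxic program were followed in a list of 39 transcription factors and cytokine receptor chains, of which 37 were tested. At 24 h 0 rose and 0 fell in edgeR, beside 0.361% of all tested genes called higher and 0.0706% lower. DESeq2 called 2 of the list as risen, and 62 of all 12742 tested genes. At 48 h 5 rose and 5 fell, beside 3.19% of all tested genes called higher and 8.04% lower. Over both times 6 rose and 4 fell, beside 2.28% and 5.52%. The medians were -0.02 at 24 h and -0.22 at 48 h. Batf3, an AP-1 family factor, stood at 12.0 and 7.85 CPM in WT and at 57.8 and 58.2 CPM in dKO at 48 h (log2 2.60, SE 0.318, adjusted p = 0.008). Id2, a regulator of effector differentiation, rose by 0.87 (SE 0.182, adjusted p = 0.0174). Klf2, a factor of resting and recirculating T cells, fell from 10.1 and 12.0 CPM to 4.17 and 4.16 CPM (log2 -1.42, adjusted p = 0.0147), and Bach2, a repressor of effector genes, fell by 1.12 (adjusted p = 0.0174). Over both times Junb, an AP-1 subunit gene, rose by 0.69 (SE 0.114, adjusted p = 0.0143), a call that held in 3 of 8 fits with 1 library left out. The 48 h call of Bach2 also missed the threshold without dKO 24 h replicate 2 (0.0502).

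Eomes and Tbx21 encode the T-box factors tied to Gzmb and Prf1 expression. Eomes stood at 11.5 and 7.34 CPM in WT and 18.2 and 24.7 CPM in dKO at 24 h, and at 17.1 and 22.9 against 34.8 and 34.8 CPM at 48 h. Its difference passed over both times (log2 0.97, SE 0.175, edgeR adjusted p = 0.0183), and in 4 of the 8 fits with 1 library left out, lost without any one dKO library. Tbx21, given after its values were seen, was at -0.12 over both times (adjusted p = 0.486). Leaving out dKO 48 h replicate 1 or 2 ended the 48 h calls in this list, and their number also moved without WT 48 h replicate 1.

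From 24 to 48 h 5 regulators rose and 3 fell in WT, beside 7.87% of all tested genes called higher and 3.5% lower, and 3 rose and 4 fell in dKO, beside 1.76% and 1.88%. Batf3 rose under both labels (log2 3.04 and 3.61, edgeR adjusted p = 0.00268 and 0.00133), as did Il2rb, a chain of the IL-2 receptor (0.57 and 0.82, adjusted p = 0.0222 and 0.0121). In WT Eomes (1.10), Ikzf2 (0.88), a zinc finger factor, and Il12rb2 (1.00), a chain of the IL-12 receptor, also rose. Bach2 and Klf2 fell under both labels, at -0.93 and -0.82 in WT and -1.65 and -1.65 in dKO. Of the 8 fits with 1 library left out, the WT calls held in 8 for Batf3, 7 for Ikzf2, 6 for Il12rb2, 5 for Eomes, 3 for Bach2, and 2 each for Klf2 and Il2rb, and Klf2 did not pass in DESeq2 (adjusted p = 0.0917). In dKO the call of Batf3 held in 8 and those of Klf2, Bach2 and Il2rb in 4, lost without any one dKO library. With total library size alone 2 regulators rose and 13 fell in WT. That scaling called 725 of the 12742 tested genes higher and 2641 lower in this comparison.

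**Figure D5:**
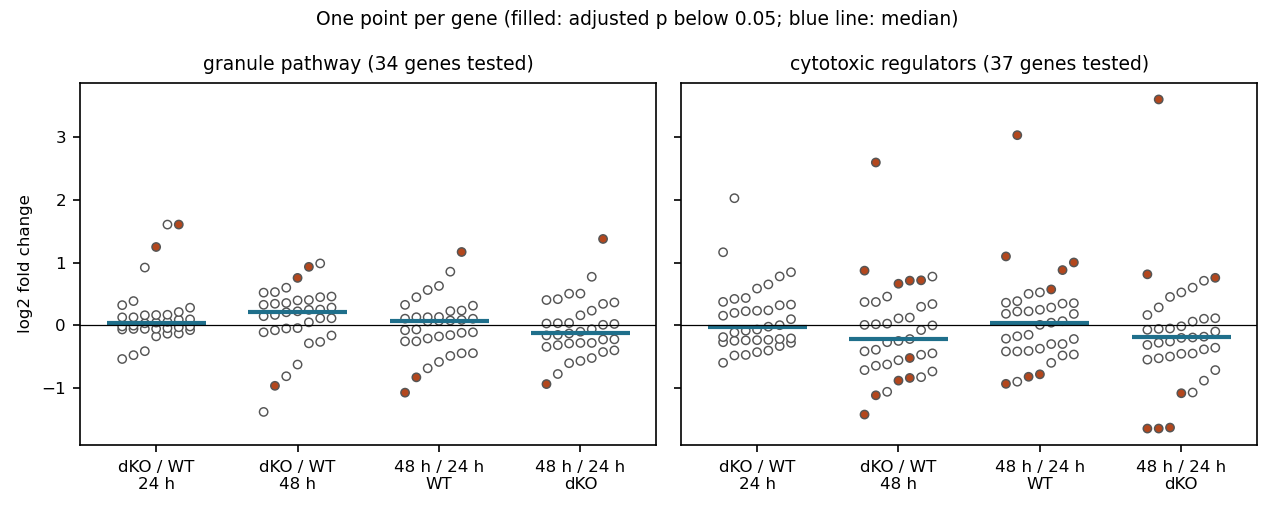
Log2 fold change (vertical axis) of each tested gene of the granule pathway list (left, 34 genes) and of the cytotoxic regulator list (right, 37 genes) in 4 comparisons (horizontal axis), filled where the edgeR adjusted p is below 0.05, with the list median as a blue line. The medians lie between -0.22 and 0.22, and the filled points are 2 to 3 per comparison in the pathway list and 0 to 10 in the regulator list.

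The likeness of patterns was described by Pearson r of log2 CPM over the 8 libraries, which share depth and scaling. The genes closest to Gzmb were Cdc20 (0.99) and Ccnb2 (0.99), both of mitosis, and Cd80 (0.99), which encodes a costimulatory ligand. Cdc20 had group means of 18.2 and 30.7 CPM at 24 h and 91.0 and 122 CPM at 48 h in WT and dKO. Closest to Gzma were Lbr (0.98), Nabp1 (0.98) and Dynlt1a (0.98), to Gzmc Alad (0.99), Ubxn8 (0.99) and Ubb (0.98), and to Prf1 Cyp2j13 (0.98), Ankrd50 (0.98) and Usp31 (0.97). Among the members, Gzmb and Gzma had r = 0.95 and Gzmb and Gzmc r = 0.23. The r of Gzmb with Prf1 was -0.80.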

How the data were processed

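Bulk RNA sequencing gave 8 libraries of activated mouse CD8+ T cells. Whether the libraries of a group came from separate cultures is unknown. The deposited values are raw counts, whole numbers for each gene symbol. The submitters' processing notes name cutadapt 1.18, Bowtie2 2.2.5 and the build mm10. The counting program, annotation, strand rule and use of molecular identifiers were not given in the sources used here, so counts of antisense or overlapping genes may be mixed. An unnamed last entry equal to the column total (50% of each column sum) was left out.

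Tests were edgeR's quasi-likelihood tests (version 4.0.16, R 4.3.3), with TMM scaling, 1 mean per group and all 8 libraries in 1 fit. The filter filterByExpr (minimum count 10) kept 12742 genes, Benjamini-Hochberg adjustment covered all of them, and a gene was called at an adjusted p below 0.05. Tests were two-sided, and each SE was taken from the log2 fold change and its F statistic. DESeq2 1.42.0, other scalings and filters, the replicate block and leaving out each library were alternatives. The function was tested on simulated data. A count of 0 allows up to 3 counts, and intervals and floors cover counting error only. Nothing says that libraries came from separate animals, so p-values measure only how these libraries spread, which may be technical. The members and lists were chosen with earlier results of these data known. Named genes are the members, Gzmg, Gzmn, 6 fixed granule genes, up to 4 called genes per list and comparison with the smallest p, and the 3 genes most like each tested member. Same-numbered libraries were not paired: their deviations correlated at r = -0.08 to 0.17 between groups. Sequences came from GENCODE M21 and RefSeq (GRCm38.p6), which held promoters of all 9 members.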

Additional observations from a re-analysis of the deposited data

How the results depend on the processing

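Of 348 values of the 4 tested members under the alternatives, 319 kept their direction and side of the threshold, 14 passed only under the alternative, 9 lost their call and 6 changed sign. The sign changes were those of Prf1 at 24 h (-0.16 to 0.064 with 1 library left out, above 0 lacking WT replicate 2 or dKO replicate 1 of that time), of Gzma at 48 h (-0.34 to 0.33 with 1 library left out, below 0 lacking replicate 2 of either label, and -0.00701 in DESeq2) and of Gzmc over time in WT (0.40 with its neighbours summed). Outside the members, Nr4a1 at 24 h (-0.033 to 0.92) and, over both times, Ctsc (-0.14 to 0.027) and Srgn (-0.10 to 0.26) changed sign with 1 library left out, and Ctsc also with total library size alone (0.015). The cause was not tested.

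The number of members called at 24 h was 0, and 1 (Gzmb) in DESeq2 and with no filter. At 48 h it was 1, and 2 with total library size or in DESeq2. A mean of at least 50 counts gave 0 at 48 h and 1 over both times against 2, because Gzmc was then not tested. In WT over time it was 1, and 2 with total library size. Leaving out 1 library gave 0 to 1 at 24 h, 0 to 3 at 48 h, 0 to 2 over both times, 1 to 2 over time under each label and 0 for the interaction. In edgeR 0 of 12742 genes passed the interaction (1575 at an unadjusted p under 0.05, 0 members among them, and 0 in DESeq2); 170 passed with no filter and 0 to 3459 with 1 library left out.

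Calls over all genes also moved: 13 to 371 at 24 h, 15 to 6521 at 48 h, 56 to 5606 over both times, 595 to 4212 over time in WT and 32 to 3303 in dKO with 1 library left out, and 206, 2962, 2264, 1982 and 1649 with no filter. Total library size alone gave 2531 at 48 h, 1615 higher and 916 lower against 406 and 1024, 1290 over both times (680 and 610), and 3366 in WT over time (725 and 2641 against 1003 and 446). It moved the median of all genes by 0.18, 0.08 and -0.36 in these comparisons. With the replicate block the counts of called members stayed at 0, 1, 2, 0, 1 and 1 in the 6 comparisons, and the adjusted p of Gzmb over both times was 0.0293 and that of Gzmc 0.0112. A fit that leaves a group with 1 library assumes that it varies like the others.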
